A study of Mus musculus with 24 samples.

Results

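Ret, a receptor tyrosine kinase, and Rftn2, a raftlin of the cell membrane, were followed in sorted brain endothelial cells together with 3 related genes. Gfra1 and Gfra2 encode co-receptors of Ret, and Rftn1 is the paralog of Rftn2. These 5 genes of the 53465 listed were taken by symbol, and all 5 passed the filter on low reads, as did 15493 genes in all. Ret and Rftn2 were chosen because their measured level in mutant mice was above that in control mice at all 6 time points. Their genotype difference is therefore given as a description with no test, while Gfra1, Gfra2 and Rftn1 were chosen by kinship and were tested.

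The study asked how the circadian clock of the blood–brain barrier acts on transcripts of the brain endothelium. CD31-positive cells, the cells that line vessels, were sorted from single brains of C57BL/6J mice and sequenced as total RNA, 1 library per mouse. Control mice (Bmal1fl/fl) carried the floxed clock gene Bmal1 without Cre, and mutant mice (Bmal1fl/fl; Tie2-cre) carried the same floxed allele and a Cre driven by the Tie2 promoter, which deletes it. Brains were taken at ZT2, 6, 10, 14, 18 and 22 (zeitgeber time, hours after lights on), 2 per genotype and time, which gave 12 control and 12 mutant mice. Tie2 is also active in blood-forming cells, so that deletion need not be confined to endothelium. The labels do not give the age or the sex of a mouse.

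Ret takes up signals of the GDNF family of growth factors. The ligands first bind a glycosylphosphatidylinositol-anchored co-receptor of the GFRα family, and this pair brings Ret molecules together so that they phosphorylate each other and recruit adapter proteins. Ret is best known in the developing kidney and in enteric and other peripheral neurons. Raftlins are lipid-anchored proteins of membrane rafts, the cholesterol-rich patches in which GFRα co-receptors and many signalling proteins gather. Bmal1 is the partner of Clock and Npas2 in the activating arm of the circadian clock.

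In the GENCODE annotation of GRCm38, the build of the files, Ret (ENSMUSG00000030110) spans chr6:118151745-118197718 on the minus strand and Rftn2 (ENSMUSG00000025978) chr1:55170159-55226782 on the minus strand. Rftn1 (ENSMUSG00000039316) lies at chr17:49992257-50190674 on the minus strand, Gfra1 (ENSMUSG00000025089) at chr19:58235604-58455909 on the minus strand and Gfra2 (ENSMUSG00000022103) at chr14:70890120-70979838 on the plus strand. The 5 genes thus lie on different chromosomes, and a read is counted for the whole gene, exons of all its transcripts included. No other annotated gene overlaps Ret or Gfra2. The antisense RNA Gm10561 shares 500 exon bases with Rftn2 and an antisense RNA, Gm16277, shares 416 with Gfra1. Whether the counting used the strand of a read is not given in the sources used here, although the library kit keeps it.

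Paralogs can share reads where their sequences are alike. The longest run of bases common to the coding sequences of Rftn1 and Rftn2 was 11 bases. For Gfra1 and Gfra2 it was 28 bases, shown here because it is the stretch in which their reads are hardest to tell apart, with the shared bases in capitals.
Gfra1 and Gfra2, shared coding run: ACTGCCGCTGCAAGCGGGGCATGAAGAA
Both runs are shorter than a sequenced read.

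The deposited values are whole-number reads per gene that the authors had already normalized between libraries, with totals of 6136404 to 6648311 per mouse. The targeted gene, listed as Arntl, was read over the whole gene, so its level does not measure loss of the floxed exon. Controls held 439 and 466 reads at ZT2, 1 and 22 at ZT10, and 15 and 13 at ZT14. Mutants held 243 and 259, 120 and 169, and 251 and 354 at these times. The genotype difference of Arntl varied with time (edgeR quasi-likelihood test of the interaction, adjusted p = 0.00813). All 8 endothelial markers passed the filter, and their summed level lay between 62631 and 100996 reads in controls and between 71147 and 108596 in mutants. The 8 ZT6 and ZT18 libraries had mitochondrial shares of 2.68% to 3.90% and the other 16 shares of 5.78% to 17.4%, in both genotypes. One i5 index served all ZT6 and ZT18 mice and the other all ZT14 and ZT22 mice, whereas at ZT2 and ZT10 the genotypes differed in index. At these 2 time points genotype and index cannot be told apart.

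Ret was about as high again in mutants as in controls. Control mice held 80 to 403 reads with a median of 212.5, and mutant mice 254 to 715 with a median of 364. After scaling by the trimmed mean of M-values (TMM), the mean was 212 ± 82.7 reads (SD, n = 12) in controls and 412 ± 139 (SD, n = 12) in mutants. The fitted log2 fold change was 1.00 with an SE of 0.13, mutants minus controls. In bulk RNA a higher share of cells that carry Ret and more Ret RNA per cell cannot be told apart.

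At ZT2, Ret was at 227 and 277 reads in controls and at 348 and 477 in mutants. At ZT6 the controls held 205 and 253 reads and the mutants 303 and 526. Both mutants lay above both controls at each of these times. At ZT10, near the end of the light phase, controls were at 99 and 80 reads, the lowest control pair of the day, while mutants held 368 and 254. At ZT14 the values were 137 and 187 in controls and 360 and 279 in mutants. The separation thus held on both sides of lights off. At ZT18 controls held 255 and 403 reads and mutants 587 and 715, the pairs with the highest mean in each genotype. At ZT22 there were 215 and 210 reads in controls and 373 and 356 in mutants, values that differed little between mice of a pair.

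The mutant mean of Ret was 1.64 times the control mean at ZT2, where the ratio was smallest, and 3.47 times at ZT10, where it was largest. It was 1.81 at ZT6, 1.97 at ZT14, 1.98 at ZT18 and 1.72 at ZT22. At the 4 time points at which both genotypes carried the same i5 index, the ratio therefore lay between 1.72 and 1.98. On the log2 scale the fitted differences were 0.74 (SE 0.29) at ZT2 and 1.81 (SE 0.30) at ZT10. Across times, 12 of 12 mutants lay above the control median, 4 of them above the highest control, and 9 of 12 controls lay below the lowest mutant. Taken without regard to time the genotypes overlapped, with 3 controls, at 255, 277 and 403 reads, above the lowest mutant.

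Rftn2 showed a difference of like size. Control mice held 104 to 465 reads with a median of 211.5, and mutant mice 261 to 611 with a median of 491.5. The TMM-normalized mean was 228 ± 99.1 reads (SD, n = 12) in controls and 463 ± 107 (SD, n = 12) in mutants. The fitted log2 fold change was 1.07 with an SE of 0.17.

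At ZT2, Rftn2 was at 268 and 217 reads in controls and at 418 and 486 in mutants. At ZT6 the controls held 104 and 212 reads and the mutants 261 and 611, so that mice of both pairs differed more than 2-fold. The lower mutant still lay above the higher control. At ZT10 there were 116 and 174 reads in controls and 336 and 564 in mutants, and at ZT14 191 and 211 against 497 and 335. Mutants again exceeded controls without overlap. At ZT18, however, the control pair held 153 and 465 reads and the mutants 414 and 540, and the genotypes overlapped. At ZT22 the values were 268 and 357 in controls and 515 and 598 in mutants. Rftn2 was thus separated by genotype at 5 of 6 time points. Of all genes tested, 31 (0.2%) had both mutants above both controls at 5 or 6 times, a count from which nothing is read for Rftn2, since it was chosen on this contrast.

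The ratio of mutant to control means of Rftn2 was smallest at ZT18, 1.54, and largest at ZT10, 3.10. It was 1.86 at ZT2, 2.76 at ZT6, 2.07 at ZT14 and 1.78 at ZT22. The fitted log2 differences ranged from 0.66 (SE 0.40) at ZT18 to 1.64 (SE 0.42) at ZT10. In mutants the mean stayed between 416 reads at ZT14 and 556.5 at ZT22. Of 12 mutants, 12 lay above the control median and 7 above the highest control. Leaving out the control of ZT18 with 465 reads moved the log2 fold change to 1.21.

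**Figure D1:**
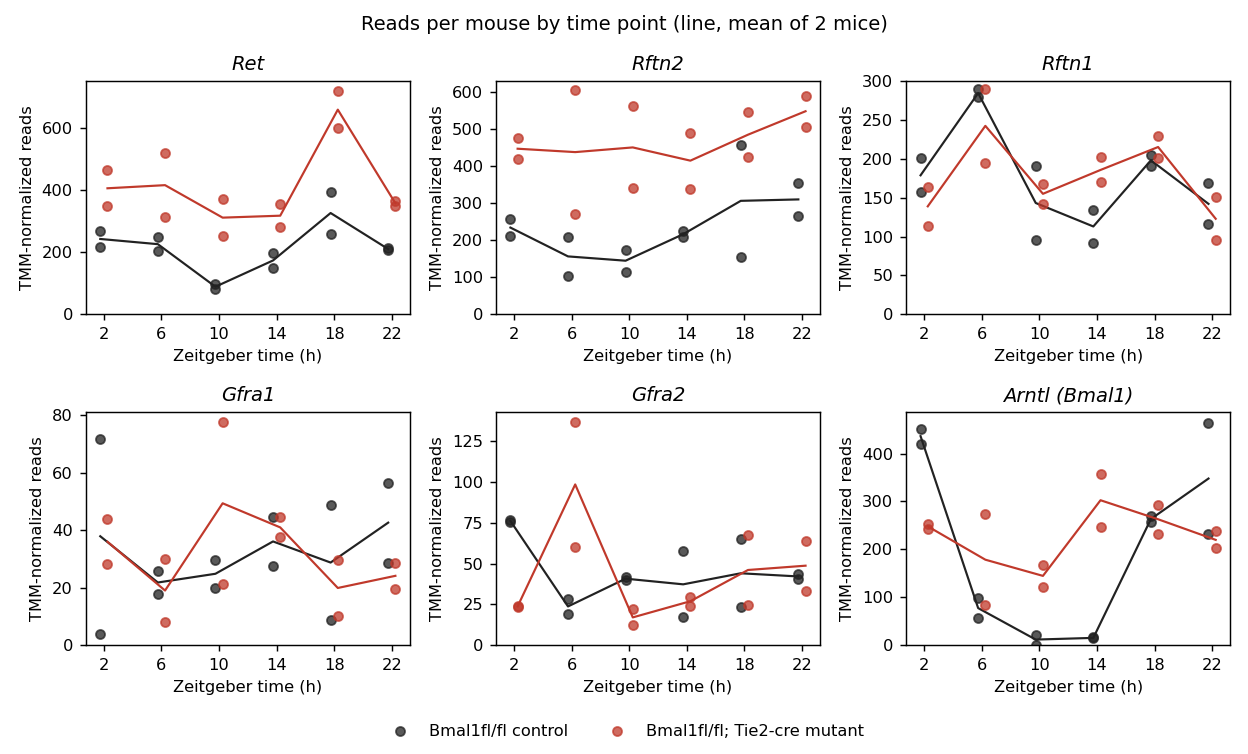
TMM-normalized reads (y axes, linear, from 0) of Ret, Rftn2, Rftn1, Gfra1, Gfra2 and Arntl against zeitgeber time in hours, 1 point per mouse and a line through the mean of 2 mice for each genotype. Red mutant points of Ret lie above the black control points at all 6 times and those of Rftn2 at 5 of 6, while the genotypes interleave for Gfra1 and Rftn1 at most times.

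A higher mutant mean at 6 of 6 time points was found for 349 of 15493 genes (2.25%), and a further 1517 genes were higher at 5 of 6. Because the rule used this contrast, nothing is read from Ret and Rftn2 being among them. The smallest of the 6 differences, on the log2(reads + 1) scale, was 0.71 for Ret and 0.62 for Rftn2. Both mutants above both controls at all 6 times was found for 3 genes (0.0194%), namely Ret, Cry1 and Plat. Nothing is read from this count for Ret either, since it was chosen on this contrast. Cry1 and Plat are named here after their values were seen. Cry1 encodes a repressor of the clock and Plat tissue plasminogen activator. With every mutant set against every control, without regard to time, 0 of 15493 genes (0%) were separated, Ret and Rftn2 included. In the fit over all genes, 24 were higher in mutants (0.155%) and 18 lower (0.116%) at an adjusted p under 0.05.

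The co-receptors of Ret were much lower and differed little by genotype on average. Gfra1, the preferred co-receptor of GDNF, held 4 to 75 reads in controls (median 27.5) and 8 to 78 in mutants (median 29). Its TMM-normalized mean was 32.0 ± 19.9 (SD, n = 12) in controls and 31.5 ± 18.5 (SD, n = 12) in mutants. The log2 fold change was -0.07 (SE 0.40, edgeR quasi-likelihood test, adjusted p = 0.992). With an SE of this size, a difference of 2-fold could also go undetected. In the same fit the receptor tyrosine kinase Ror1, at a log2 fold change of 1.05 (SE 0.45), had an edgeR adjusted p = 0.618. For Gfra1 at ZT2 the control pair alone held 75 and 4 reads, and at ZT10 the mutant pair held 21 and 78. The genotypes overlapped at all 6 time points.

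Gfra2, the preferred co-receptor of neurturin, held 16 to 80 reads in controls (median 41.5) and 12 to 132 in mutants (median 27). The means were 44.0 ± 20.8 and 43.5 ± 34.7 TMM-normalized reads (SD, n = 12 each), with a log2 fold change of -0.20 (SE 0.36, adjusted p = 0.966 in edgeR). The pairs at single time points lay apart in both directions. At ZT2 controls held 80 and 78 reads and mutants 24 and 24, and at ZT10 the pairs were 42 and 40 against 12 and 22. At ZT6 controls held 19 and 29 reads and mutants 132 and 61. The genotypes did not overlap at these 3 times and overlapped at ZT14, ZT18 and ZT22. With 2 mice against 2 this is common, since 5159 of all genes (33.3%) were without overlap at 3 or more times. The test of a genotype difference that varies with time gave an unadjusted p of 0.0240 and an adjusted p of 0.947 for Gfra2 in edgeR. For Gfra1 the unadjusted p was 0.862 and for Rftn1 0.343. Over all genes, 2 passed this test (0.0129%) and 809 had an unadjusted p under 0.05.

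Rftn1, the other raftlin, showed no genotype difference beyond its spread. Controls held 85 to 292 reads (median 179.5) and mutants 97 to 294 (median 168.5). The means were 177 ± 63.9 and 177 ± 52.2 TMM-normalized reads (SD, n = 12 each), and the log2 fold change was 0.02 (SE 0.15, edgeR adjusted p = 0.994). At ZT6 all 4 mice held 188 reads or more, and the mean ratio of mutants to controls there was 0.837. The mutant pair lay above the control pair only at ZT14, with 205 and 168 reads against 85 and 126. In each mouse the log2 ratio of Rftn2 to Rftn1 reads was taken. Its mean was 0.33 in controls and 1.40 in mutants, and it was above 0 in 8 of 12 controls and 12 of 12 mutants.

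**Figure D2:**
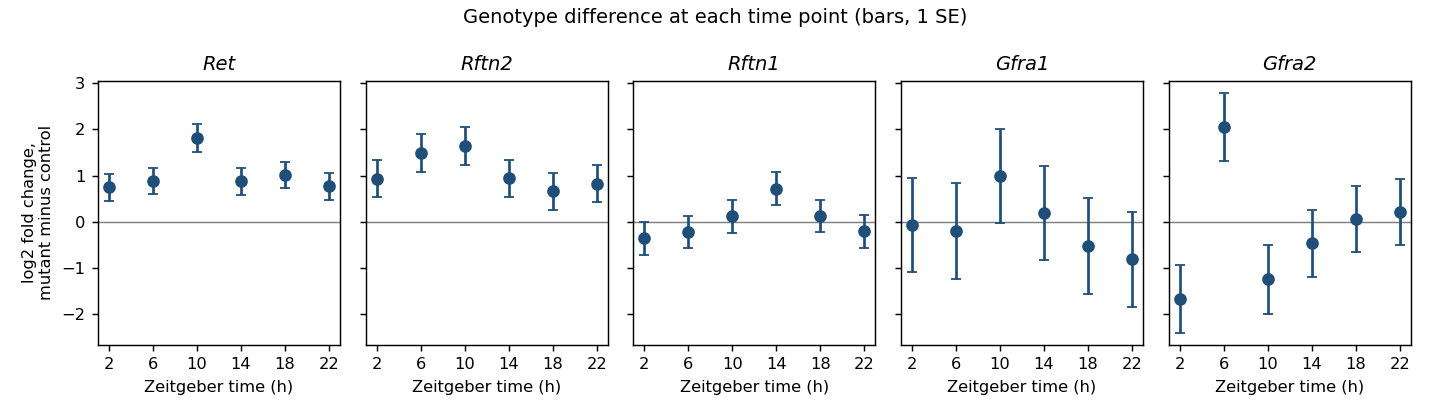
Log2 fold change, mutant minus control, of Ret, Rftn2, Rftn1, Gfra1 and Gfra2 at each zeitgeber time in hours, as fitted with 2 mice per genotype and time (points), with bars of 1 SE. Ret and Rftn2 are above 0 at every time, from 0.66 to 1.81, Rftn1 and Gfra1 lie on both sides of 0, and Gfra2 runs from -1.68 at ZT2 to 2.05 at ZT6.

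Levels of different genes were compared per kilobase of exon, with the union of annotated exons as the length (6.763 kb for Ret, 5.871 kb for Rftn2, 4.504 kb for Rftn1, 3.539 kb for Gfra2 and 5.476 kb for Gfra1). In controls Rftn1 (39.3 ± 14.2 TMM-normalized reads per kb, SD, n = 12), Rftn2 (38.8 ± 16.9) and Ret (31.3 ± 12.2) did not differ beyond their spread. Gfra2 (12.4 ± 5.87) and Gfra1 (5.84 ± 3.64) followed. Ret was above Gfra1 and above Gfra2 per kb in each of the 12 controls and each of the 12 mutants. Gfra2 exceeded Gfra1 in 10 controls and 8 mutants.

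In mutants the order at the top was Rftn2 (78.9 ± 18.2 reads per kb), Ret (61.0 ± 20.5) and Rftn1 (39.3 ± 11.6), again as mean ± SD over 12 mice. Rftn2 was above Rftn1 in 7 of 12 controls and 12 of 12 mutants. Ret was above Rftn1 in 3 of 12 controls and 12 of 12 mutants, in 1 of these by a log2 ratio of only 0.0014. Rftn2 and Ret stood close, with Rftn2 the higher in 8 controls and 9 mutants. In mutants Gfra2 (12.3 ± 9.81) and Gfra1 (5.76 ± 3.38) stayed at the bottom.

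**Figure D3:**
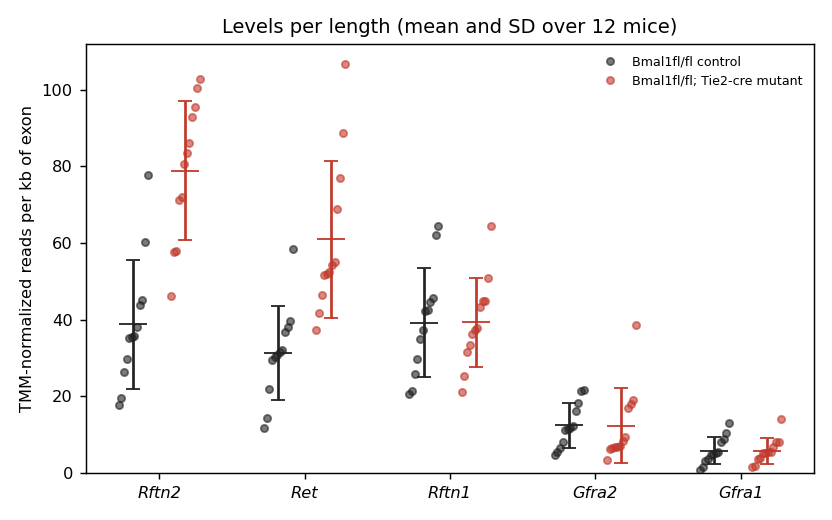
TMM-normalized reads per kilobase of exon (y axis, linear, from 0) for Rftn2, Ret, Rftn1, Gfra2 and Gfra1, 1 point per mouse, with the mean and SD over 12 mice of each genotype. The mutant means of Rftn2 and Ret, 78.9 and 61.0, stand above the other means, and both co-receptors have means under 13 in both genotypes.

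Rhythms were tested within each genotype with a 24-h cosine and sine in edgeR, a contrast the choice of genes did not use. In controls, Ret had a fitted amplitude of 0.56 on the log2 scale with a peak at ZT21.9 and an unadjusted p of 0.0456, and Rftn2 an amplitude of 0.60 with a peak at ZT20.4 and an unadjusted p of 0.0141. Neither passed adjustment over all genes (adjusted p = 1.00 for Ret and 0.871 for Rftn2). In controls 686 genes (4.43%) had an unadjusted p under 0.05 and 14 (0.0904%) an adjusted one. In mutants the amplitude was 0.28 for Ret (unadjusted p = 0.231) and 0.14 for Rftn2 (unadjusted p = 0.597). There 645 genes (4.16%) had an unadjusted p under 0.05 and 0 (0%) an adjusted one. The amplitudes of the genotypes are not compared, since how the genotype difference varies over time belongs to the contrast that chose Ret and Rftn2.

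With single control mice left out, the unadjusted p of Ret in controls lay between 0.0170 and 0.167 and was above 0.05 in 7 of 12 fits. That of Rftn2 lay between 0.0016 and 0.0488. With single mutants left out, the unadjusted p of Ret in mutants lay between 0.0469, without mouse 2 of ZT6, and 0.497, without mouse 2 of ZT18, and that of Rftn2 between 0.228 and 0.857. Gfra1, Gfra2 and Rftn1 had unadjusted p-values between 0.228 and 0.723 in both genotypes.

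Ret and Rftn2 varied together across mice. Pearson's r of their log2(TMM-normalized reads + 1) was 0.75 over 24 mice, a value to which the shared genotype difference adds. After the mean of each genotype was taken out it was 0.47, and 0.50 after the mean of each genotype and time point. Ret and Rftn1 had an r of 0.48 within genotypes, whereas Rftn2 and Rftn1 had one of -0.14. The paralogs thus did not vary together. Ret and Gfra1 had an r of -0.42 within genotypes and of -0.68 within genotypes and time points. Ret and Gfra2 had values of 0.13 and -0.12, the co-receptors resting on few reads. These are descriptions over 24 mice, whose libraries were pooled for sequencing, with no test.

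**Figure D4:**
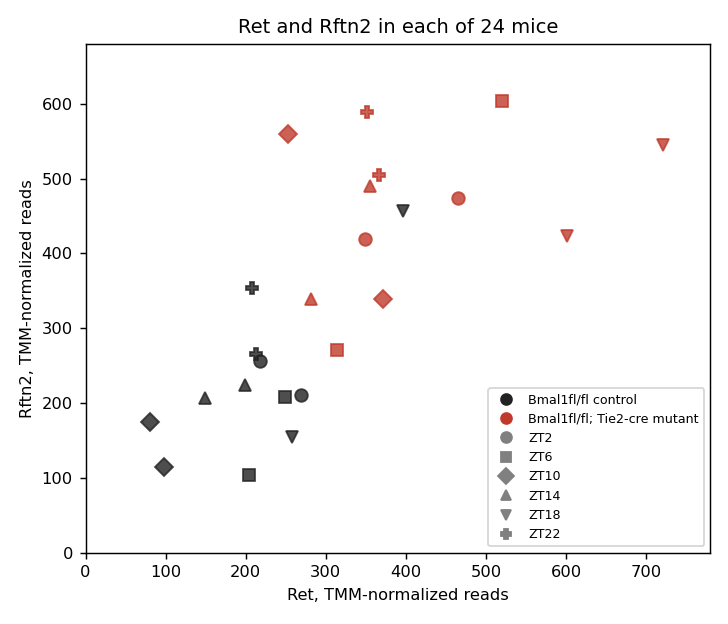
Rftn2 against Ret in TMM-normalized reads (linear axes from 0), 1 symbol per mouse, with colour for genotype and shape for zeitgeber time. Mutant mice tend to lie to the upper right of control mice, with some overlap along both axes. The control of ZT18 at 396 and 457 reads lies among the mutants, and r is 0.75 over all 24 mice.

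Among 9892 genes with a mean of 50 or more reads, those most like Ret over the 24 mice were Etl4 (r = 0.90), Plekhg1 (0.87), Emp2 (0.86), Mmp15 (0.85) and Rgl1 (0.85). Emp2 encodes a membrane protein with 4 passes, Mmp15 a membrane-type metalloproteinase and Rgl1 an exchange factor of Ral. Because r was taken over both genotypes and Ret was chosen for its genotype difference, genes that differ in the same direction are favoured, and their fold changes are given with no test. The log2 fold change was 1.09 for Mmp15 (SE 0.20), 0.49 for Plekhg1 (SE 0.11), 0.47 for Emp2 (SE 0.13), 0.45 for Etl4 (SE 0.09) and 0.32 for Rgl1 (SE 0.08). After genotype means were taken out, 3 of these 5 were still among the 5 nearest to Ret, led then by Eps8l2 with an r of 0.87 and a log2 fold change of 0.07 (SE 0.09). Rftn2 was 22nd on the list of Ret over both genotypes and 486th after genotype means were taken out.

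For Rftn2 the nearest genes were Npas2 (r = 0.79), Thra (0.79), Bok (0.78), Unc119b (0.78) and Spaar (0.75), with Ret 6th. Npas2 encodes the clock partner of Bmal1 that can stand in for Clock, Thra the thyroid hormone receptor alpha and Bok a protein of the Bcl-2 family. Npas2 stood at 63.3 TMM-normalized reads in controls and 203 in mutants. Its log2 fold change, fitted with time point as a factor, was 2.27 (SE 0.53). The log2 fold change was 0.90 for Bok (SE 0.30), 0.82 for Spaar (SE 0.19), 0.57 for Unc119b (SE 0.11) and 0.49 for Thra (SE 0.12), again a description that the measure of likeness favours. Within genotypes, Ret was 141st, while Npas2 was still nearest to Rftn2, with an r of 0.74, and Bok second. The next were Tmx2, Tor1b and Dhrs3, with log2 fold changes of -0.12 (SE 0.16), 0.04 (SE 0.12) and -0.06 (SE 0.16). No gene was in both groups of 5.

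The nearest tested genes beside Ret and Rftn2 on their chromosomes were read in the same fit. Csgalnact2, 12.6 kb from Ret, had a log2 fold change of 0.10 (SE 0.12, edgeR adjusted p = 0.932), and Rasgef1a, 60.2 kb away, one of 0.02 (SE 0.30, adjusted p = 0.995). On the other side, Bms1 was at -0.11 (SE 0.08, adjusted p = 0.859) and Zfp248 at 0.36 (SE 0.22, adjusted p = 0.810). None of the 4 passed the test.

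Mob4 and Hspe1, on one side of Rftn2, had log2 fold changes of 0.12 (SE 0.18, adjusted p = 0.952) and -0.18 (SE 0.22, adjusted p = 0.932) in edgeR. Mars2, on the other side at 10.4 kb, was at 0.27 (SE 0.23, adjusted p = 0.887). The overlapping antisense RNA Gm10561 averaged 4.33 ± 5.57 reads in controls and 9.63 ± 9.21 in mutants (SD, n = 12 each), with a log2 fold change of 1.17 (SE 0.88, adjusted p = 0.862). Its reads are few beside those of Rftn2 in both genotypes.

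Genes of the pathway were taken from lists of ligands, receptor partners, adapters and targets of Ret and of raft proteins, 78 genes in all, of which 61 passed the filter. In edgeR 0 of the 61 passed the test in either direction. Of these, 6 (9.84%) had an unadjusted p under 0.05, beside 1077 of all 15493 genes (6.95%). Their median log2 fold change was 0.02, beside 0.0033 over all genes tested. Of the ligands, 0 of 5 passed the filter. Gdnf averaged 0.17 reads in controls and 0.42 in mutants and was at 0 in 22 of 24 mice. Nrtn, neurturin, averaged 2.83 and 1.25 reads. Little ligand RNA was thus seen in the sorted cells themselves.

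Of 8 co-receptors and partners of Ret at the membrane, 5 passed the filter, Gfra1 and Gfra2 among them. Gfra3 and Gfral were at 0 in all 24 mice. Ncam1, which can bind GDNF with Gfra1 in place of Ret, had a mean of 161 TMM-normalized reads in controls against 127 in mutants (log2 fold change -0.31, SE 0.25, edgeR adjusted p = 0.871). Sdc3, a heparan sulfate proteoglycan that binds GDNF, averaged 1687 and 1703 (adjusted p = 0.998).

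Adapters and enzymes that dock on phosphorylated Ret were mostly detected, and none passed the test. Of 19 listed, 17 passed the filter, 13 with a log2 fold change above 0 and 4 below, between -0.18 and 0.28. Grb2, which links receptors to Ras, averaged 449 and 448 TMM-normalized reads in controls and mutants. Shc1 averaged 242 and 225, Frs2 347 and 359, and Plcg1, a phospholipase, 2553 and 2667. The adjusted p-values of these 4 genes in edgeR lay between 0.946 and 0.999.

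The feedback genes and early targets of receptor tyrosine kinases split evenly, with 7 of 14 above 0 and 7 below. Spred1, an inhibitor of the Ras pathway, averaged 546 and 655 reads (log2 fold change 0.26, SE 0.09, unadjusted p = 0.0040, adjusted p = 0.333) and was higher in mutants at 6 of 6 time points, as were 2.25% of all genes. Spry4 averaged 289 and 329 (adjusted p = 0.941) and Dusp6, a phosphatase of ERK, 1147 and 1269 (adjusted p = 0.842). Egr1 averaged 6843 and 8173 (unadjusted p = 0.0427, adjusted p = 0.696). It is among the genes that respond quickly to cell isolation.

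Factors known to bind or drive Ret in other tissues were in part lacking, since Hoxb5 and Nkx2-1 were at 0 in all 24 mice and 5 of 9 listed passed the filter. The retinoic acid receptors Rara and Rarg averaged 144 and 149, and 367 and 391 TMM-normalized reads in controls and mutants. Rarb, itself a target of retinoic acid, averaged 15.7 and 26.1 (log2 fold change 0.71, SE 0.45, edgeR adjusted p = 0.824). It was higher in mutants at 6 of 6 times, as were 2.25% of all genes. Rxra, the partner of these receptors, averaged 273 and 330 (unadjusted p = 0.0441, adjusted p = 0.697).

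Among raft and caveolar scaffolds, 5 of the 10 that passed the filter were above 0 and 5 below. Flot2, a flotillin, was lower in mutants at 6 of 6 time points, 181 against 130 reads (log2 fold change -0.48, SE 0.15, unadjusted p = 0.0037), but did not pass adjustment (adjusted p = 0.330). Of all genes, 311 (2.01%) were lower at 6 of 6. Cav1, the main caveolin of endothelium, averaged 1089 and 1135 reads (adjusted p = 0.919) and Cav2 829 and 1004 (unadjusted p = 0.0295, adjusted p = 0.635). Raftlin has been tied to uptake of the ligands of Tlr3 and Tlr4 through clathrin. Of 10 genes listed for that route, Ticam1, the adapter of Tlr3, averaged 101 and 136 reads (log2 fold change 0.43, SE 0.16, unadjusted p = 0.0113, adjusted p = 0.520). Tlr3 averaged 222 and 253 (adjusted p = 0.895) and the clathrin heavy chain Cltc 4792 and 4962 (adjusted p = 0.939).

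Of 30 other receptor tyrosine kinases, 22 passed the filter, 12 with a log2 fold change above 0 and 10 below. In edgeR 0 of the 22 were called, beside 0.155% of all 15493 genes called higher and 0.116% called lower. Ror1 (1.05, SE 0.45, unadjusted p = 0.0265, adjusted p = 0.618), Fgfr1 (-0.37, SE 0.14, unadjusted p = 0.0169, adjusted p = 0.554) and Ryk (0.27, SE 0.13, unadjusted p = 0.0476, adjusted p = 0.708) had an unadjusted p under 0.05. These 3 are 13.6% of the 22, beside 6.95% of all genes. The insulin receptor Insr averaged 2584 and 2574 TMM-normalized reads in controls and mutants, and the IGF-1 receptor Igf1r 7049 and 6266 (adjusted p = 0.766).

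**Figure D5:**
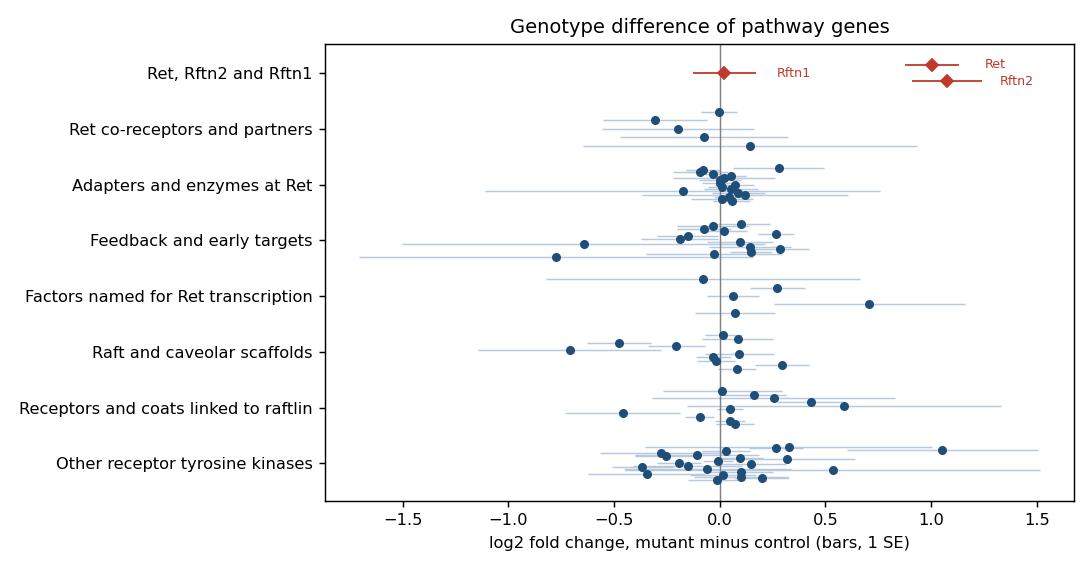
Log2 fold change, mutant minus control, of each listed gene of the pathway, or other receptor tyrosine kinase, that passed the filter, by list (blue points, with bars of 1 SE), and of Ret, Rftn2 and Rftn1 (red diamonds). Ret and Rftn2 lie at 1.00 and 1.07, and the listed genes at -0.78 to 1.05, none of them past the test.

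Markers of other cells were set beside both genes because a CD31 sort can hold other cells. Within genotypes, Ret had an r of 0.52 with the summed endothelial markers and of 0.67 with the sum of 5 arterial markers over the 24 mice. Most of the arterial sum came from Sema3g and Efnb2, with means of 1274 and 910 TMM-normalized reads in controls. Hey1, Bmx and Gkn3 averaged 356, 312 and 89.8 there. Ret had an r of -0.58 with 7 astrocyte markers and of -0.58 with 6 microglia markers. With 5 leukocyte markers it was -0.65, where Ptprc was the only one to pass the filter. All astrocyte and microglia markers were detected, and none was at 0 in every mouse. For Rftn2 the r with the same sums, in the same order, was -0.16, 0.12, 0.07, 0.13 and -0.03. With the sums of neuron, oligodendrocyte, mural, fibroblast, erythroid, choroid, venous and isolation-response genes, r lay between -0.36 and 0.35 for Ret and between -0.25 and 0.22 for Rftn2.

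The summed microglia markers ranged from 523 to 14095 TMM-normalized reads in controls and from 633 to 16942 in mutants. Summed astrocyte markers ranged from 4575 to 17166 and from 4317 to 19352, and arterial markers from 1864 to 3584 and from 2511 to 4058. Of the markers, 8 of 8 endothelial, 5 of 6 microglia, 2 of 5 arterial and 0 of 7 astrocyte genes had a higher mean in mutants. So had 6 of 6 genes that respond to cell isolation, whose sum ranged from 13708 to 49088 reads in controls and from 17515 to 53903 in mutants. Among them Jun had a log2 fold change of 0.31 (SE 0.10, edgeR unadjusted p = 0.0028, adjusted p = 0.282). The mean was higher in 0 of 7 oligodendrocyte, 0 of 5 erythroid, 0 of 5 venous, 0 of 5 choroid, 2 of 8 neuron, 2 of 5 fibroblast, 3 of 7 mural and 1 of 5 leukocyte genes. The choroid sum went the other way by its median, 6865 reads in controls and 11786 in mutants, with a highest control of 66208. Tmem212, a choroid marker, was at 0 in all 24 mice. One marker of all these lists passed the test, the arterial Gkn3, with 89.8 ± 63.9 TMM-normalized reads in controls and 18.8 ± 9.38 in mutants (SD, n = 12 each, log2 fold change -2.28, SE 0.40, edgeR adjusted p = 0.0045). With marker sums of 6 cell types as covariates, the log2 fold change was 1.00 for Ret and 0.95 for Rftn2. These values describe the contrast that chose both genes, and nothing is read from them. The part of the marker genes in the levels of Ret and Rftn2 was not tested.

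In the ZT6 and ZT18 libraries with low mitochondrial share, Ret was at 277 ± 82.9 TMM-normalized reads in controls and 539 ± 171 in mutants (SD, n = 4 each). In the others it was at 179 ± 64.6 and 349 ± 63.4 (SD, n = 8 each). Rftn2 was at 231 ± 156 and 461 ± 147 in the first set and at 226 ± 70.2 and 464 ± 93.2 in the second. Rftn1 was at 242 ± 50.5 and 229 ± 43.6 in the first and at 144 ± 41.5 and 151 ± 33.7 in the second. The mean of Rftn1 was higher at both ZT6 and ZT18 than at the remaining times in both genotypes. For Ret the mean was highest at ZT18 in both genotypes. Its ZT6 means of 229 reads in controls and 414.5 in mutants stood near the 252 and 412.5 at ZT2. They were above the means at ZT10, ZT14 and ZT22 in both genotypes. Time of day and library set cannot be told apart there. Xist exceeded 1000 reads in 7 of 12 controls and 6 of 12 mutants, so that both genotypes held both sexes.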

How the data were processed

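RNA-seq of 24 mice (12 control, 12 mutant) was analysed. Per the labels, the authors aligned reads to GRCm38 with STAR 2.5.3a and used SAMtools 1.3.1, and they quantified genes with PORT, which normalizes between libraries. The deposited values are whole-number reads per gene and were handled as counts, so the original depth and its counting error are not in them. All columns were used. The filter of the study was kept, which asks for 5 reads in 6 or more mice of a genotype.

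The genotypes were compared in R 4.3.3 by edgeR 4.0.16 (TMM, quasi-likelihood, time point as a factor, Benjamini-Hochberg over all genes that passed the filter). SE is the log2 fold change over the root of F. Rhythms were fitted as a 24-h cosine and sine per genotype, since MetaCycle, the tool of the study, was not installed. Scripts were tested on simulated data. Python 3.11.15, NumPy 2.4.6, pandas 2.3.3 and matplotlib 3.10.9 served for annotation and plots. DESeq2 1.42.0, other scalings and filters, the replicate number as a block, covariates, subsets of times and single mice left out were alternatives.

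The genes named are the 5 members, pathway and marker lists, Arntl, the 2 nearest tested genes on each side of Ret and Rftn2, and the 5 genes with the highest Pearson r, also within genotypes. Cry1, Plat and the overlapping antisense RNAs were named after their values were seen, as were the examples taken from the lists. The members and lists were chosen with earlier results of these data known.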

Additional observations from a re-analysis of the deposited data

Results flagged for a closer look

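The genotype difference of Gfra2 went opposite ways at different time points. Both mutants lay below both controls at ZT2 (log2 fold change -1.68, SE 0.74) and at ZT10 (-1.26, SE 0.75), and both lay above both controls at ZT6 (2.05, SE 0.74). With 2 mice per genotype and time such separation is common, and 33.3% of all genes were without overlap at 3 or more of 6 times. The difference between single time points was not tested on its own. The test over all 6 time points gave an unadjusted p of 0.0240 in edgeR and an adjusted p of 0.947. At ZT2 and ZT10 the genotypes also differed in i5 index. With the index as a covariate, the log2 fold change over all times was 0.44 (edgeR adjusted p = 0.899), beside -0.20 in the main fit (adjusted p = 0.966). The part of the index at single time points was not tested.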

How the results depend on the processing

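Ret and Rftn2 were higher in mutants under all 36 alternatives each, with log2 fold changes of 0.89 to 1.05 and of 0.95 to 1.21. Without single mice they lay between 0.93 and 1.05 for Ret and between 0.97 and 1.21 for Rftn2. Both genes were chosen for this direction in the same mice, so nothing is read from its persistence. Values near 0 changed sign without passing the test. Gfra1 was at 0.056 with the replicate block, 0.0017 with the replicate block by pair, 0.10 with marker sums, 0.072 with Xist as a covariate and 0.066 in ZT2, ZT10, ZT14 and ZT22 mice, and between -0.28 and 0.17 without single mice. It was not tested under the filter of 10 reads in every mouse of a genotype. Rftn1 was at -0.041 with marker sums, -0.062 in ZT6 and ZT18 mice, and between -0.052 and 0.077 without single mice. Gfra2 was at 0.44 with the i5 index as a covariate and 1.04 in ZT6 and ZT18 mice, but at -0.80 in the other times and -0.54 with marker sums, and between -0.39 and -0.05 without single mice. Their adjusted p-values were 0.853 or more throughout.

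Counts of genes higher and lower in mutants, 24 and 18, were 89 and 52 with no filter, 56 and 43 in DESeq2, 3 and 4 with the i5 index, 3 and 6 with marker sums, and 0 and 3 in ZT6 and ZT18 mice. In the remaining times 11 were lower. Without single mice 11 to 41 were higher and 12 to 27 lower. The mice whose removal moved the count of higher genes by over 1.5 times were ZT14 control 2 and ZT18 control 1 (15 higher without either), ZT18 control 2 (37), and ZT6 mutants 1 (41) and 2 (11). Same-numbered mice did not deviate together (r of -0.01 to 0.01 per time point), but the number moves with Xist, which exceeded 1000 reads in 11 of 12 mice numbered 1 and in 2 of 12 numbered 2. The replicate block gave 26 and 19. The rhythm of Rftn2 in controls had p = 0.0505 in a permutation test on log2(reads + 1). By Spearman's correlation, 3 of the 5 genes nearest to Ret and 3 of those nearest to Rftn2 remained, and 3 and 2 after genotype means were taken out. The low reads of Gfra1 and Gfra2 limit what their tests can detect. The causes of these changes were not tested.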
